A study of Homo sapiens with 12 samples.

Results

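The genes described here are the transcriptional co-activators YAP1 and WWTR1 (the gene of TAZ), their DNA-binding partners TEAD1, TEAD3 and TEAD4, the kinase gene LATS2 and the target genes AMOTL2, ANKRD1, CCN1 and CCN2, in the MDA-MB-231 line, breast cancer cells that lack the estrogen receptor and have a mesenchymal shape. They are 10 of the 18665 genes, and 14 of the 48803 probes, of a table of linear probe intensities that the authors deposited for 12 Illumina BeadChip arrays. The set was chosen on these same values, because YAP1 was low on 3 arrays whose CCND1 probe ILMN_1688480 lay below an intensity of 4000, so the levels of YAP1 and CCND1 on those arrays are given as a description and were not tested. The labels give 3 arrays each to cells with siRNA against cyclin D1, with siRNA against CDK4/6, with non-targeting siRNA and to a control group. The titles of this last group read Control, and it is called no siRNA here. They do not state how these cells were treated, so no siRNA and without siRNA stand only for this label below. All 4 groups are the same cell line with no other named allele or agent. The siRNA protocol of the study gives 40 nM oligonucleotides, without naming CDK4/6, and its legends give 20 h after transfection. The legends also describe the plotted data as means of independent experiments, while the labels do not say that the 3 arrays of a group came from separate cultures. The p-values therefore measure the spread between these arrays, which may be technical in part. Arrays with the same label also differed widely in the siRNA targets, as given below, so this spread is not that of like replicates alone.

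YAP and TAZ carry the output of the Hippo pathway. When the kinases MST (genes STK3 and STK4) and LATS are active, YAP and TAZ are phosphorylated and held in the cytoplasm. When they are not, YAP and TAZ enter the nucleus, where, having no DNA-binding domain of their own, they act through TEAD factors on genes such as CCN2, CCN1 and ANKRD1. Soft surroundings, high cell density and loss of actin tension also hold YAP and TAZ back, and LATS2 and AMOTL2 are both targets and inhibitors, which closes a feedback loop. Control is largely at the protein level, which these arrays did not measure.

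The 250 bases before the start sites of CCN2, ANKRD1 and YAP1 are shown because the letters of the TEAD motif stand in each of them, and because these 3 genes carry the results. Capitals mark GGAATG or, on the other strand, CATTCC. Sequences are from RefSeq (GRCh38.p14), read 5′ to 3′ along the gene's strand, and lie at chr6:131951373-131951622 (minus strand) for CCN2, chr10:90921088-90921337 (minus strand) for ANKRD1 and chr11:102110197-102110446 (plus strand) for YAP1.
CCN2: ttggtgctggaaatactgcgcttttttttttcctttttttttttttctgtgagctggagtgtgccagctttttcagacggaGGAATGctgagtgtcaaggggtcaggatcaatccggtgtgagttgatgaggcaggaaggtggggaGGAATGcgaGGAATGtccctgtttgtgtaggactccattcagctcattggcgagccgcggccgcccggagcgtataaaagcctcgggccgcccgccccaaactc
ANKRD1: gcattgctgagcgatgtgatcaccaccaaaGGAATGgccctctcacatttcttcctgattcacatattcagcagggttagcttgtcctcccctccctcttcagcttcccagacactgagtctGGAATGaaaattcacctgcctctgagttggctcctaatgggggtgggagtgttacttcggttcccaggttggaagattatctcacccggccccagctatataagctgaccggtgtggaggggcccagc
YAP1: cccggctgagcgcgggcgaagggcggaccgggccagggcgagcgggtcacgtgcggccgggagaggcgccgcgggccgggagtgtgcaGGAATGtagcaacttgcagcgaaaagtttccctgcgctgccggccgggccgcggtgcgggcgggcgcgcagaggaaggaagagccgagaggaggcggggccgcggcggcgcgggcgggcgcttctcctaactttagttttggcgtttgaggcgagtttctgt
CCN2 had 3 matches, 95, 104 and 169 bases before its start. ANKRD1 had 2, at 128 and 220 bases, and YAP1 had 1, at 162 bases. Of the 10 genes, 7 had an entry in the table used (all but CCN1, TEAD1 and TEAD4), with 9 start sites in all, of which 4 held a match, the remaining one at AMOTL2, 69 bases before its start at chr3:134374448-134374697. Over all 35116 start sites of the table, 11.9% held at least 1 match in the same length and 0.0826% held 3 or more. A match describes letters and is no measured binding site.

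The siRNA targets did not follow the labels, so groups are named here by label only, and arrays were never moved, averaged or tested by what they measured. The cyclin D1 gene CCND1 lay at 13878, 3513 and 5100 on the arrays labelled cyclin D1 siRNA 1, 2 and 3, and at 13952, 15393 and 4361 on those labelled CDK4/6 siRNA. It lay at 2951, 14187 and 4311 on those labelled non-targeting siRNA and at 13659, 2703 and 14977 on those labelled no siRNA. The values nearest to 4000 were 3513.1 below it and 4311.2 above it. CDK4 was at 408.6 on CDK4/6 siRNA 2, 274.9 on non-targeting siRNA 2 and 301.2 on no siRNA 3, and at 2167 or above on the other 9 arrays. Of the 13601 genes tested, the share with their highest value on a given array ran from 5.50% on cyclin D1 siRNA 2 to 14.3% on CDK4/6 siRNA 3, with 11.3% on cyclin D1 siRNA 3. By their brightest probes, the markers of the cell line VIM, CD44, AXL and CAV1 were bright on every array (VIM between 15295 and 16971). Other probes were dimmer for CD44 (48.8 to 63.3 and 121.9 to 172), AXL (59.1 to 78.6) and CAV1 (41.2 to 50.1, above background on 6 arrays). SPARC was at background on all 12. ESR1, the estrogen receptor, lay between 37.8 and 46.1 around the background level of 44.2, and CDH1 lay between 41.1 and 48.5. The other 5 luminal markers were above background on all 12 arrays. KRT18 lay between 5192 and 6215 on its brightest probe and at 65.9 to 89.5 and 135.9 to 200.6 on the others. KRT8 lay between 933.0 and 1294, TFF1 between 104.6 and 138.0, GATA3 between 80.2 and 99.6 and EPCAM between 58.4 and 86.0. Of the defining markers of other cell types, PTPRC of leukocytes and VWF of endothelium were above background on 0 arrays. In contrast, PECAM1 of endothelium was between 87.8 and 106.3, COL1A2 of fibroblasts between 4100 and 5064 and CD14 of leukocytes between 245.2 and 399.5. Each of these was above background on all 12 arrays. The dimmer probe of COL1A2 lay between 37 and 45.8, above background on 1 array, and that of CD14 between 62.3 and 88.7. CD3E of leukocytes and CDH5 of endothelium were each above background on 1 array. Among the other fibroblast markers, no probe of DCN was above background on more than 2 arrays. COL1A1 (54.6 to 68.2) and the brighter LUM probe (47 to 60) were above it on all 12. The dimmer LUM probe (41 to 49.4) was above it on 6.

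YAP1 spanned a 3.49-fold range over the 12 arrays and fell into 2 separate ranges that crossed the labels. Its only probe, ILMN_1709479, was at 2310, 720.8 and 1857 on the arrays labelled cyclin D1 siRNA 1, 2 and 3, and at 2058, 1670 and 1649 on those labelled CDK4/6 siRNA. It was at 740.4, 1768 and 1864 on the arrays labelled non-targeting siRNA and at 1958, 662.2 and 1674 on those labelled no siRNA. The arrays cyclin D1 siRNA 2, non-targeting siRNA 1 and no siRNA 2, which are the 3 with CCND1 below 4000, thus held YAP1 at 662.2 to 740.4, and the other 9 held it at 1649 to 2310. The arrays with intermediate CCND1, cyclin D1 siRNA 3, CDK4/6 siRNA 3 and non-targeting siRNA 3, were in the upper range of YAP1. A step of 1.15 on the log2 scale parted the ranges. In bulk RNA, fewer cells with a transcript and less of it per cell cannot be told apart.

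**Figure D1:**
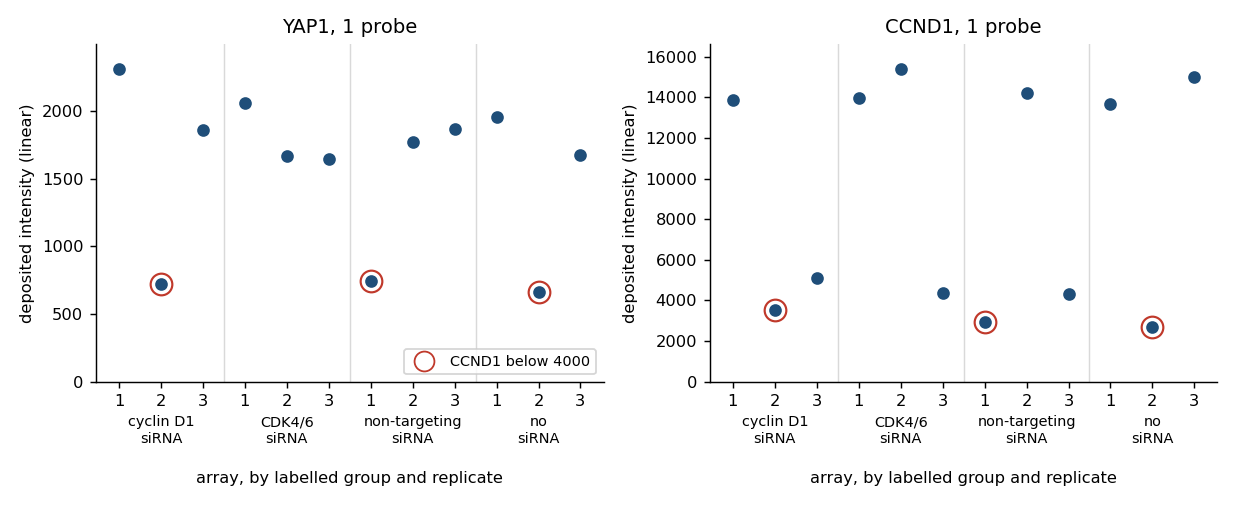
Deposited linear intensity (vertical axes, from 0) of the YAP1 probe and the CCND1 probe on each of the 12 arrays (horizontal axes, by labelled group and replicate). Rings mark the 3 arrays with CCND1 below 4000, on which YAP1 lay at 662.2 to 740.4 against 1649 to 2310 on the other 9, while the arrays with CCND1 between 4311 and 5100 had YAP1 in the upper range.

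The partners of YAP1 did not share this step. WWTR1, which encodes the YAP paralogue TAZ, was measured by probe ILMN_1787115 at 105.5, 95.6 and 100.4 on the 3 arrays with low YAP1, in the order cyclin D1 siRNA 2, non-targeting siRNA 1 and no siRNA 2. On the other 9 arrays it lay between 94.8 and 128.9, so all 3 were inside that range. WWTR1 was highest, at 128.9, on cyclin D1 siRNA 1, which was also the array with the highest YAP1.

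The TEAD genes encode the factors that bring YAP and TAZ to DNA. TEAD1 (ILMN_1674049) was at 93.1, 73.4 and 82.2 on the same 3 arrays, one of them the highest of all 12, against 69.8 to 88.9 on the other 9. TEAD3 (ILMN_1814002) was at 171.1, 155.7 and 142.8 there, against 142.2 to 195.8 on the other 9. TEAD4 (ILMN_1705301) was at 133.7, 121.4 and 136.8, against 120.4 to 145.2. The 3 arrays therefore overlapped the rest for each of these probes. The dimmer probes overlapped too: the second TEAD1 probe (ILMN_1735055) ranged from 43.8 to 52.4 over the 12 arrays, and the other TEAD4 probes from 65 to 82.1 (ILMN_2413041) and from 37 to 47.7 (ILMN_1722824). The last was above background only on the 3 arrays labelled non-targeting siRNA (44.4, 47.7 and 45.3), so it entered the test through that group alone, and ILMN_2413041 had its lowest value, 65, on non-targeting siRNA 1.

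LATS2 and AMOTL2, inhibitors of YAP that YAP itself can switch on, gave little signal. LATS2 (ILMN_1703412) lay between 35.2 and 44.9 and passed the background level on 1 array, no siRNA 2, so it was not tested. AMOTL2 (ILMN_1778788) passed on all 12 arrays but stayed near background, at 47.7, 47.6 and 46.6 on the cyclin D1 siRNA arrays, 52.6, 50.8 and 51.0 on those of CDK4/6 siRNA, 48.4, 50.2 and 50.3 on those of non-targeting siRNA and 47.4, 51.0 and 48.7 without siRNA. On the 3 arrays with low YAP1 it was at 47.6, 48.4 and 51.0, in the order given above and inside the range of the other 9. Signal this close to background limits what could be seen of either gene.

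**Figure D2:**
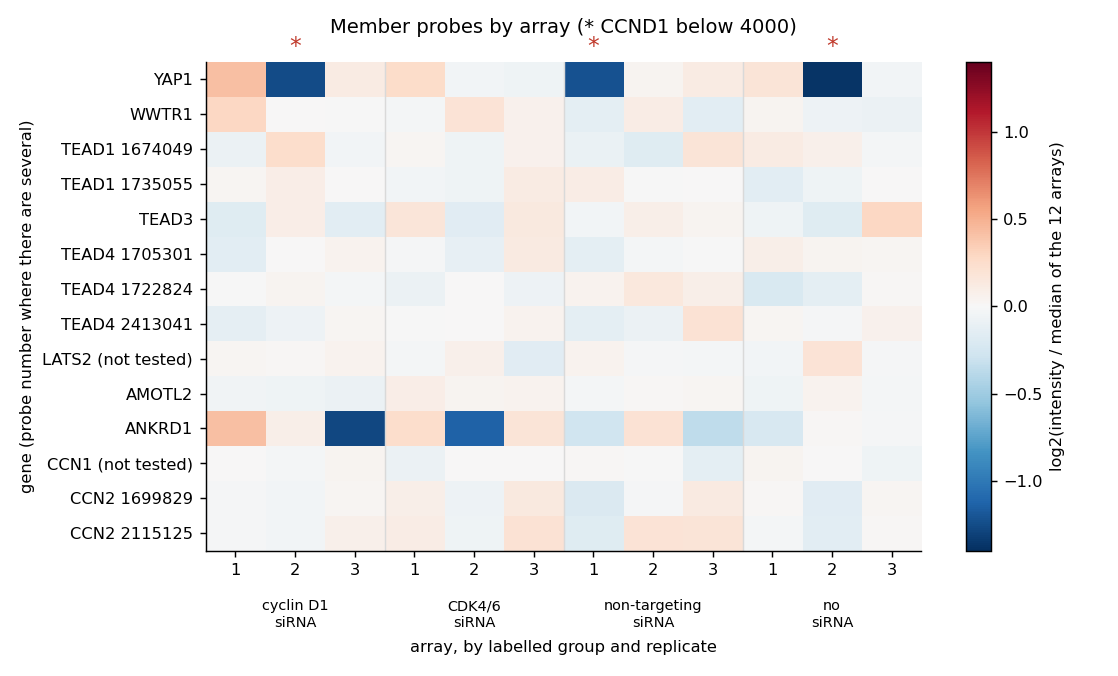
Colour gives the log2 ratio of the deposited intensity to the median of the 12 arrays for the 14 probes (rows, with the probe number where a gene has several) on each array (columns, by labelled group and replicate), and asterisks mark CCND1 below 4000. YAP1 is dark on the 3 marked arrays and ANKRD1 on cyclin D1 siRNA 3 and CDK4/6 siRNA 2, while the other rows stay pale throughout.

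CCN2, the gene of a secreted matricellular protein and a standard readout of YAP activity, moved little, and what movement it showed was partly on the arrays with low YAP1. Probe ILMN_1699829 was at 10680, 10531 and 11006 with cyclin D1 siRNA and at 11469, 10339 and 11892 with CDK4/6 siRNA. It was at 9398, 10716 and 11771 with non-targeting siRNA and at 10937, 9720 and 11065 without siRNA. Non-targeting siRNA 1 and no siRNA 2 were thus the lowest of the 12 arrays, below every array with high YAP1, and cyclin D1 siRNA 2 came at rank 4 from the lowest, above CDK4/6 siRNA 2.

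The second CCN2 probe, ILMN_2115125, put these arrays in the same places. It was at 9781 on cyclin D1 siRNA 2, 8988 on non-targeting siRNA 1 and 9088 on no siRNA 2, against 9675 to 11559 on the other 9. The whole range of CCN2 was 1.27-fold on the first probe and 1.29-fold on the second, close to the median range of 1.29-fold over the 13601 genes tested, where YAP1 spanned 3.49-fold. Both probes measure the same RNA on the same arrays and are not separate evidence.

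ANKRD1, which encodes an ankyrin repeat protein of muscle and stressed cells and is another standard YAP target, had a range almost as wide as that of YAP1, 3.23-fold, but on other arrays. Probe ILMN_1716264 was at 5164, 4086 and 1597 with cyclin D1 siRNA and at 4579, 1759 and 4394 with CDK4/6 siRNA. It was at 3196, 4439 and 3016 with non-targeting siRNA and at 3307, 3901 and 3833 without siRNA. The low arrays were cyclin D1 siRNA 3 and CDK4/6 siRNA 2, and the other 10 lay between 3016 and 5164, a step of 0.78 on the log2 scale. On the arrays with low YAP1, ANKRD1 was at 4086 (cyclin D1 siRNA 2), 3196 (non-targeting siRNA 1) and 3901 (no siRNA 2), which are ranks 8, 4 and 7 from the lowest.

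The 2 arrays with low ANKRD1 differed in the siRNA targets. Cyclin D1 siRNA 3 had CCND1 at 5100, CDK4 at 2234 and CDK6 at 1752, whereas CDK4/6 siRNA 2 had CCND1 at 15393, CDK4 at 408.6 and CDK6 at 333.5. Other arrays with like levels of these genes did not have low ANKRD1: it was at 4394 on CDK4/6 siRNA 3 and 3016 on non-targeting siRNA 3, where CCND1 was also intermediate, and at 4439 on non-targeting siRNA 2 and 3833 on no siRNA 3, where CDK4 was also low. YAP1 was at 1857 and 1670 on the 2 arrays with low ANKRD1, within its upper range. CCN1, a target of the same matricellular family as CCN2, could not be read, since its probe ILMN_2188264 lay between 35.4 and 40.1 and was above background on 0 arrays.

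**Figure D3:**
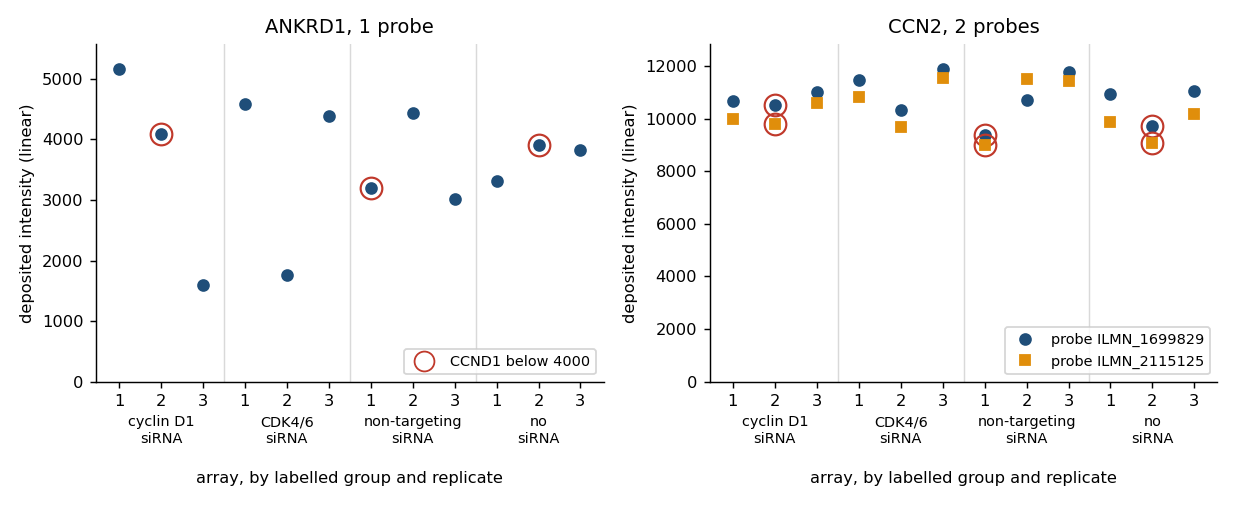
Deposited linear intensity (vertical axes, from 0) of the ANKRD1 probe and of both CCN2 probes on the 12 arrays (horizontal axes, by labelled group and replicate), with rings for CCND1 below 4000. ANKRD1 is at 1597 and 1759 on cyclin D1 siRNA 3 and CDK4/6 siRNA 2 and at 3196 to 4086 on the ringed arrays, and CCN2 is lowest on non-targeting siRNA 1 and no siRNA 2 by either probe.

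Genes with the pattern of YAP1 were sought by their order over the 12 arrays, as a description with no test. Of the 13601 genes, 255 (1.87%) had the same 3 lowest arrays as YAP1, and in 6 of them, YAP1 included, the step to the next array was at least 0.5 on the log2 scale. YAP1 had the widest step, 1.15. CEP20, a centrosome and cilium gene, followed with 1.07 and lay at 650.8 to 787.7 on the 3 arrays against 1648 to 2165 on the other 9. ERH, a small nuclear protein gene, had a step of 0.91 and lay at 1090 to 1459 against 2745 to 3662.

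The next genes had narrower steps. HDGF, a growth factor gene, had a step of 0.61 (660.1 to 750.6 against 1148 to 1362), and CERS6, a ceramide synthase gene, one of 0.54 (296.3 to 378.9 against 551.9 to 802.9). NUF2, a kinetochore gene, had a step of 0.52 (173.9 to 250.7 against 359.7 to 691.0), and FURIN, a proprotein convertase gene, one of 0.48 (139.8 to 152.7 against 213.3 to 272.7). None of them was on the lists of Hippo or YAP genes. Of the other 7 genes of the set that were tested, 0 shared the 3 lowest arrays of YAP1, beside 1.87% of all genes. At so small a share, this count says little about these 7 genes.

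The 2 lowest arrays of ANKRD1 were also the lowest of 653 genes (4.8%), itself included, and it alone had a step of at least 0.5. The next widest steps on the same 2 arrays were those of ARHGAP18 (0.48), MEIS1 (0.42) and ADI1 (0.39), which were named after their values were seen. ARHGAP18 was at 196.3 on cyclin D1 siRNA 3 and 185.4 on CDK4/6 siRNA 2, with a highest value of 452.6. By the sum of rank differences over the 12 arrays, which can reach 72, the genes nearest to ANKRD1 among the 1764 with a range of at least 1.5-fold were NR2C2AP (10), NUCB2 (14), AUP1 (14), MTFP1 (16), NFKBIB (16) and ZNF680 (16). NR2C2AP, the nearest, spanned 757.1 to 1278 and was also highest on cyclin D1 siRNA 1 and lowest on cyclin D1 siRNA 3.

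**Figure D4:**
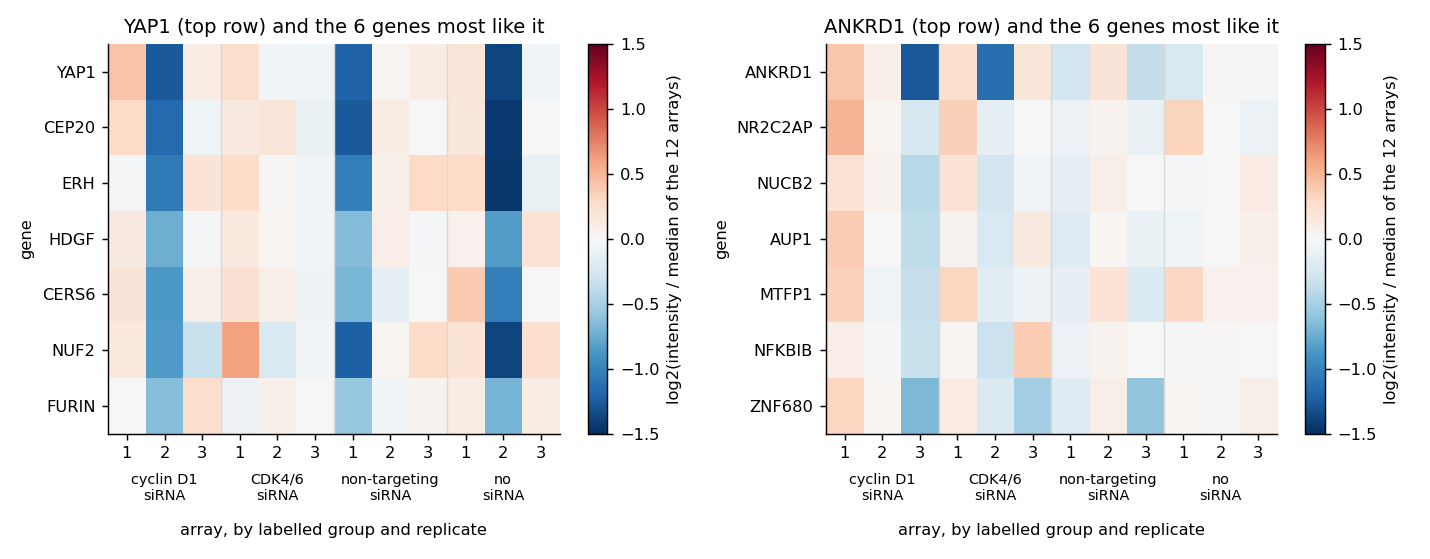
Colour gives the log2 ratio of the deposited intensity to the median of the 12 arrays (columns, by labelled group and replicate), on the left for YAP1 and the 6 genes that share its 3 lowest arrays with the widest step, and on the right for ANKRD1 and the 6 genes nearest to it in rank order. CEP20 and ERH are nearly as dark as YAP1 on the same 3 arrays, while no gene on the right is as dark as ANKRD1 on cyclin D1 siRNA 3 and CDK4/6 siRNA 2.

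By label, YAP1 averaged 1629 ± 819 with cyclin D1 siRNA, 1792 ± 230 with CDK4/6 siRNA, 1458 ± 623 with non-targeting siRNA and 1431 ± 681 without siRNA (SD, n = 3 each). ANKRD1 averaged 3616 ± 1829, 3577 ± 1578, 3550 ± 775 and 3680 ± 325 in the same order (SD, n = 3 each), and CCN2 (ILMN_1699829) averaged 10739 ± 243, 11234 ± 803, 10629 ± 1189 and 10574 ± 743 (SD, n = 3 each). For each of these genes, groups next to each other in the order of their means differed by less than the larger SD of the pair.

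No gene of the set passed the test between labelled groups, and neither did any other gene, the siRNA targets included. For cyclin D1 siRNA the log2 fold change of CCND1 was 0.15 (standard error 0.79). For CDK4/6 siRNA that of CDK4 was 0.28 (standard error 0.97) and that of CDK6 0.07 (standard error 0.78). Since the targets did not follow the labels, the comparisons by label, here and below, cannot show what silencing did to a gene. Of 13601 genes, 0 were called for cyclin D1 siRNA (0%) and 0 for CDK4/6 siRNA (0%), each set against the non-targeting arrays, and 0 over the 4 groups (0%), at an adjusted p below 0.05 from limma. At an unadjusted p below 0.05 there were 413, 247 and 151 genes, none of them from the set, and the methods' t-test called 0 after adjustment and 327 and 265 genes before it in the first and second comparison. The smallest adjusted p of limma was 0.9999 for cyclin D1 siRNA and 0.9998 for CDK4/6 siRNA, which are also the values of every gene of the set.

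The log2 fold change of YAP1 against non-targeting siRNA was 0.11 (standard error 0.49) for cyclin D1 siRNA and 0.40 (standard error 0.49) for CDK4/6 siRNA. Single arrays set these values. Without the array labelled non-targeting siRNA 1 they were -0.31 and -0.026, and without cyclin D1 siRNA 2 the first was 0.61. That of ANKRD1 was -0.11 (standard error 0.42) with cyclin D1 siRNA, or 0.39 without cyclin D1 siRNA 3, and -0.09 (standard error 0.42) with CDK4/6 siRNA, or 0.36 without CDK4/6 siRNA 2. CCN2 had log2 fold changes of 0.02 and 0.08 (standard error 0.08 each) on its first probe and of -0.06 and 0.01 (standard error 0.10 each) on the second, so the probes differed in sign for cyclin D1 siRNA.

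The partners had smaller standard errors, on dim probes. For WWTR1 the log2 fold change was 0.14 for cyclin D1 siRNA and 0.12 for CDK4/6 siRNA (standard error 0.08 each). These moved to 0.051 without cyclin D1 siRNA 1 and 0.067 without CDK4/6 siRNA 2, and to 0.20 and 0.19 without non-targeting siRNA 2. Values were 0.06 and 0.03 (standard error 0.08 each) for TEAD1, -0.09 and 0.02 (standard error 0.11 each) for TEAD3 and 0.02 and 0.04 (standard error 0.06 each) for TEAD4. AMOTL2 was the only one of the 8 tested genes whose groups did not overlap, with every cyclin D1 siRNA array below, and every CDK4/6 siRNA array above, the non-targeting arrays. Its log2 fold changes were -0.05 and 0.04 (standard error 0.04 each). Over all genes 3.46% lay wholly below the non-targeting arrays with cyclin D1 siRNA, and 3.62% lay wholly above them with CDK4/6 siRNA. In the opposite directions the shares were 4.17% above with cyclin D1 siRNA and 2.5% below with CDK4/6 siRNA, and 0 of the 8 genes were among them.

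**Figure D5:**
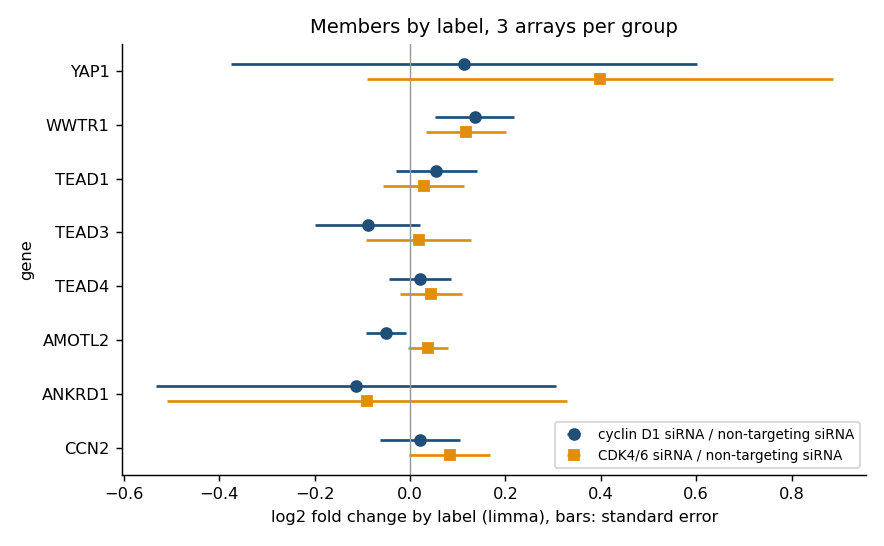
Log2 fold change from limma (horizontal axis) of the 8 tested genes (rows) for cyclin D1 siRNA and for CDK4/6 siRNA, each against non-targeting siRNA, with bars for 1 standard error and 3 arrays per group. The bars of YAP1 and ANKRD1 reach about 0.49 and 0.42 to each side and the values of the other genes stay between -0.09 and 0.14.

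None of the kinases and regulators upstream of YAP and TAZ was called by label. Of 31 genes listed, 28 were tested and 0 passed in either comparison. At an unadjusted p below 0.05 there was 1 for cyclin D1 siRNA (WWC2) and there were 3 for CDK4/6 siRNA (STRN3, RASSF1 and FAT4), beside 3.04% and 1.82% of all genes. Their median log2 fold changes were 0.03 and 0.00022, against 0.0032 and 0.0042 over all genes. The MST kinase gene STK3 lay between 1100 and 1347 over the 12 arrays, LATS1 between 396.7 and 514.5 and the adaptor SAV1 between 329.3 and 449.7. NF2, the gene of merlin, stayed near background at 42.8 to 51.8. Of these 28 genes, 2 (SCRIB and RASSF1, 7.14%) spanned 1.5-fold or more over the arrays, against 13% of all genes.

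Of 14 nuclear partners listed, among them TEAD2, the VGLL cofactors, SMAD2, SMAD3, JUN and FOSL1, 10 were tested. There were 0 called, with median log2 fold changes of 0.02 and 0.04, and 0 spanned 1.5-fold. At an unadjusted p below 0.05 from limma there were 0 for cyclin D1 siRNA and 1 for CDK4/6 siRNA (SMAD3), beside 3.04% and 1.82% of all genes. TEAD2, the remaining TEAD gene, lay between 41.4 and 47.6 and was above background on 7 arrays. JUN, whose AP-1 factor shares enhancers with TEAD, lay between 1691 and 2035.

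No further target of YAP and TAZ was called by label, and 1 of them, BIRC5, had its lowest values on the 3 arrays with low YAP1. Of 32 listed, 23 were tested, 0 were called, and the median log2 fold changes were 0.00056 and 0.0093. A range of 1.5-fold or more was seen in 7 (30.4%, against 13% of all genes), namely F3, CPA4, BIRC5, NT5E, PTGS2, TGFB2 and DLC1. Over the 5 gene lists, 4 of the 87 genes tested had the same 3 lowest arrays as YAP1, beside 1.87% of all genes: BIRC5, MOB1B, ATF3 and FRMD6. None of these 4 was among the 6 genes with a step of at least 0.5. FRMD6 reached 2497 on the 3 arrays with the next array at 2516, and MOB1B reached 81.3 with the next at 84.7. BIRC5, the gene of survivin, which is also transcribed in dividing cells, was at 1573 on cyclin D1 siRNA 2, 1682 on non-targeting siRNA 1 and 1514 on no siRNA 2, against 1804 to 2370 on the other 9. NT5E, which encodes the ecto-enzyme CD73, was lowest on no siRNA 2 (1421) and non-targeting siRNA 1 (1480), like CCN2, but was at 1719 on cyclin D1 siRNA 2, above no siRNA 1 (1696).

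PTGS2, the gene of the prostaglandin synthase COX-2, was instead highest on 1 of these arrays, at 1977 on no siRNA 2, and at 1198 and 1494 on cyclin D1 siRNA 2 and non-targeting siRNA 1. The 2 arrays with low ANKRD1 were also the lowest of 3 of the 87 genes, IER2, AXL and MYC, beside 4.8% of all genes. AXL, a receptor tyrosine kinase gene, was at 4736 on cyclin D1 siRNA 3 and 5455 on CDK4/6 siRNA 2, against 5821 to 6988 on the other 10. The tissue factor gene F3 was lowest on cyclin D1 siRNA 3 (3460), but at 4684 on CDK4/6 siRNA 2 it was above non-targeting siRNA 1 (4445).

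Since ANKRD1 and CCN2 also answer to actin through SRF and its cofactor MRTF, those targets were listed as well. Of 16 listed, 15 were tested and 0 called, with median log2 fold changes of 0.0041 and 0.02. A range of 1.5-fold or more was seen in 4 (26.7%, against 13% of all genes). Besides VCL these were ACTG2 (1.62-fold), MYL9 (1.54-fold) and TPM1 (1.52-fold). VCL, the gene of the focal adhesion protein vinculin, had the widest range of them, 2.02-fold. It was at 4399 on cyclin D1 siRNA 3, 4499 on CDK4/6 siRNA 3 and 3983 on non-targeting siRNA 3, which are the arrays with intermediate CCND1, against 6933 to 8046 on the other 9. These were neither the 3 arrays with low YAP1 nor, but for cyclin D1 siRNA 3, those with low ANKRD1. On the second array with low ANKRD1, CDK4/6 siRNA 2, VCL was at 7844.

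Immediate early genes, which answer a stimulus within minutes, formed the last list. Of 12 listed, 11 were tested and 0 called, with median log2 fold changes of -0.07 and -0.02. At an unadjusted p below 0.05 from limma there was 1 for cyclin D1 siRNA (JUNB), 0 for CDK4/6 siRNA and 1 over the 4 groups. The shares of all genes were 3.04%, 1.82% and 1.11%. A range of 1.5-fold or more was seen in 3 (MYC, ATF3 and FOSB, 27.3%), against 13% of all genes. ATF3, a stress response factor gene, was lowest on cyclin D1 siRNA 2 (928.7), non-targeting siRNA 1 (1037) and no siRNA 2 (926.8), against 1067 to 1682 on the other 9. FOS lay between 493.6 and 721.1 and EGR1 between 879.3 and 1312. Whether any of these genes has a part in the levels of YAP1 or ANKRD1 was not tested.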

How the data were processed

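The 12 arrays of MDA-MB-231 RNA fall into 4 labelled groups of 3. The authors deposited a linear intensity per probe for 48803 probes, with a lowest value of 28, a median of 44.1 and a highest of 20972, so background had not been removed. Software and normalization: not given in the sources used here. A further 24 per-sample columns were not used, as no label names them.

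After normexp background correction (offset 50) and a quantile step, log2 values were taken. Background was the mode of all intensities below 60 (39.4) with the SD of the values below the mode (2.90). Probes that exceeded 44.2 (one-sided background p, 0.05) on 3 or more arrays were tested: 27229 probes (55.8%) and 13601 genes, with the brightest tested probe standing for a gene. Of all probes, 27578 have 1 symbol in the platform annotation, 13 have several and 21212 have none there. limma 3.58.1 in R 4.3.3 (lmFit, eBayes, 1 fit over the 4 groups, two-sided) gave p-values adjusted by Benjamini-Hochberg over all probes tested. The script was tested on simulated data first. The number of arrays limits the precision, and at most 0.698% of values were identical between 2 arrays.

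The members and gene lists were chosen with earlier results of these data known. Genes named are all probes of the 10 members, those most like YAP1 (same 3 lowest arrays, by the step to the next) and ANKRD1 (smallest sum of rank differences), and members of the 5 lists. Those singled out within a list were chosen after their values were seen. Results were recomputed with other background corrections, normalizations and filters, other controls and tests, array weights, the mean over a gene's probes, a fit of the compared groups only, the replicate number as a block, and each array left out in turn. No chip block was run because the sources used here do not place arrays on chips. Figures were drawn with matplotlib 3.10.9.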

Additional observations from a re-analysis of the deposited data

How the results depend on the processing

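No gene was called in any comparison under any alternative run (unadjusted p below 0.05 in 228 to 799, 141 to 542 and 56 to 388 genes for cyclin D1 siRNA, CDK4/6 siRNA and the 4 groups), and the smallest adjusted p of a member was 0.911. Of 320 member values, 30 changed sign, 19 of them when 1 array was left out and 11 otherwise, and the cause was not tested.

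Log2 fold changes of cyclin D1 siRNA against non-targeting siRNA that turned were -0.11 for YAP1 with array weights, and -0.028 for TEAD4 and -0.021 for CCN2 with the mean over probes. With no siRNA as the control they were -0.0081 for TEAD1 and -0.070 for TEAD4, and with both control groups together -0.024 for TEAD4. For CDK4/6 siRNA, TEAD4 was at -0.013 with the mean over probes (which takes in ILMN_1722824, above background on the non-targeting arrays alone), TEAD1 at -0.035 and TEAD4 at -0.048 with no siRNA as the control, and TEAD1 at -0.0032 and TEAD4 at -0.0020 with both.

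Leaving out each array gave, for cyclin D1 siRNA, -0.31 to 0.61 for YAP1, -0.029 to 0.14 for TEAD1, -0.013 to 0.072 for TEAD4, -0.45 to 0.39 for ANKRD1 and -0.065 to 0.097 for CCN2. For CDK4/6 siRNA it gave -0.026 to 0.63 for YAP1, -0.028 to 0.11 for TEAD1, -0.035 to 0.11 for TEAD3, -0.013 to 0.093 for TEAD4, -0.33 to 0.36 for ANKRD1 and -0.0022 to 0.16 for CCN2.

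Deviations of arrays with the same replicate number correlated above 0.1 in 9 of 18 pairs (-0.23 to 0.47, median 0.11). Pairs with different numbers did so in 12 of 36 (-0.53 to 0.47, median -0.045), and 5 of 12 arrays were closest to their own number. These values do not settle whether the numbers pair arrays, and the main fit did not pair them. With the replicate block, 0 genes were called in each comparison and no member changed its call. Signal near background limits LATS2, CCN1 and AMOTL2.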
